A study of Mus musculus with 46 samples.

Results

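Microglia that were dividing while they refilled the brain were compared with microglia of untreated adult mice, gene by gene, by poly(A) RNA sequencing. The comparison was defined by the sample labels alone: 2 libraries of repopulating Ki67-positive microglia against 2 adult libraries, which are 4 of the 10 RNA libraries and 4 of the 46 samples of the series. All mice were male C57BL/6. The adult libraries came from 90-day-old wild-type mice without treatment, and their cells are labelled Ki67-negative. The repopulating libraries came from 75-day-old mice of the Ki67-rfp reporter genotype. These mice ate a diet with PLX5622, a drug that blocks the receptor CSF1R and kills most microglia, for 17 days from day 55, and then had 3 days of recovery. Their microglia were sorted as Ki67-positive. Each library held 200000 sorted microglia, isolated on ice with sodium butyrate and flavopiridol in the buffer, and the 2 libraries of a group are independent biological replicates per the labels. Genotype, age, PLX5622 and the Ki67 sort all differ between the groups. So does a code in the count table's header whose meaning is not given, called the header code below. The parts of these in any difference from adult cannot be told apart.

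Microglia depend on CSF1R signalling to survive, and when most of them are removed the survivors divide and refill the brain within weeks. A cell that enters division first switches on genes for copying DNA, under E2F factors, and later the genes for mitosis, under B-MYB, FOXM1 and the complex that binds CHR elements. Interferons are secreted antiviral signals that act through ISRE elements in the promoters of responding genes, and interferon-responsive microglia are known from development, ageing and injury.

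Of 20999 genes in the table, 12230 had enough counts to be tested, and library totals lay between 7137499 and 8807640 counts. In edgeR's quasi-likelihood test, 5489 genes (44.9% of those tested) differed at an adjusted p under 0.05. Of these, 2918 (23.9%) were higher in the repopulating cells and 2571 (21.0%) were lower. Both shares are the background for the counts given below for lists of genes. The median log2 fold change over all genes tested was -0.01. The balance of directions depends on scaling. With library sizes only, 2753 genes were called higher and 2786 lower. On TPM they were 2595 and 3053 with a pseudocount of 1, and 2599 and 3024 with 0.1. Large changes were mostly increases: by fitted fold change, 628 of the called genes were higher and 191 lower by at least 4-fold. The calls rest on 2 libraries a group and on a spread shared with the other 6 RNA libraries. Leaving out 1 of the 4 libraries left 3640 to 4487 calls, and without repopulating library 2 the lower genes numbered 1504.

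**Figure D1:**
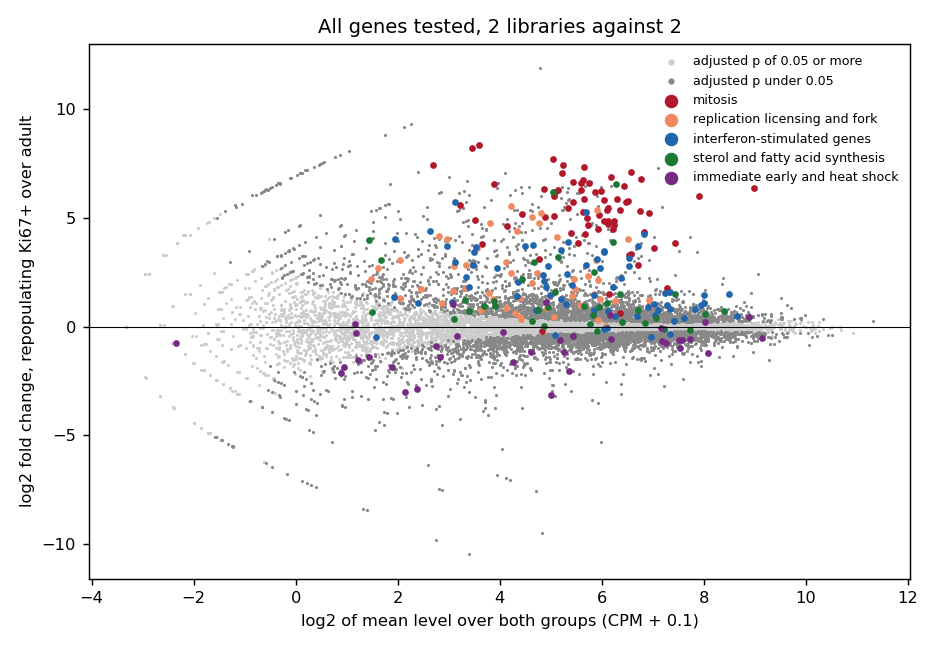
Log2 fold change of repopulating Ki67-positive over adult microglia (vertical) against the log2 of the mean level over both groups in CPM + 0.1 (horizontal), 1 point per gene tested. Mitosis genes form the upper band, with a median of 5.38, interferon-stimulated and sterol genes lie above 0, and immediate early genes lie mostly below 0.

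Microglial markers were high in all 4 libraries. Levels are given as TMM-scaled CPM (counts scaled to library size), library 1 before library 2. The authors' counting kept at most 3 reads per position in every gene. That cap can hold down differences of abundant genes such as these, which was not tested. Of 10 listed markers, 1 was higher and 4 were lower, beside 23.9% and 21.0% over all genes tested. Their summed level was 9220 and 9336 CPM in the adult and 7901 and 8291 CPM in the repopulating libraries. Csf1r, the receptor for the growth factors of microglia, was at 1613 and 1643 CPM in the adult and 1545 and 1717 CPM in the repopulating libraries (log2 fold change 0.00, SE 0.12, edgeR adjusted p = 0.991). Tmem119, a microglial surface protein, was at 776 and 794 against 717 and 813 CPM (adjusted p = 0.803). For both genes the adult values lay within the range of the repopulating pair. Aif1, which encodes the microglial protein IBA1, rose from 80.3 and 92.6 to 122 and 124 CPM (1.42-fold, adjusted p = 0.0023).

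The sort is visible in Mki67, which encodes the Ki67 protein. It was at 13.4 and 11 CPM in adult microglia (mean 12.2 ± 1.71, SD, n = 2) and 930.1 and 1087 CPM in the repopulating ones (1009 ± 111, SD, n = 2). The difference was 82.4-fold (log2 fold change 6.36, SE 0.20, edgeR adjusted p = 6.88e-10). Both repopulating libraries were far above both adult ones. The Ki67-negative repopulating cells held Mki67 as well, at 336 and 463 CPM.

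Genes of mitosis made the group difference with the highest median among the 25 lists. Of the 69 listed genes for chromosome condensation, the spindle and cell division, 68 were higher, none was lower, and the median log2 fold change was 5.38. Top2a, the topoisomerase that untangles chromosomes, was at 4.86 and 9.78 CPM in adult and 426 and 524 CPM in repopulating cells (65.2-fold higher, adjusted p = 3.42e-09). Cdk1, the kinase that cyclin B activates, was at 3.70 and 4.16 against 89.3 and 115 CPM (25.9-fold, adjusted p = 3.42e-09). Adult levels were low but not 0, and no repopulating library came near them. Ccnb1, which encodes a B cyclin, was at 0.463 and 0.122 against 56.1 and 75.9 CPM (log2 fold change 7.72, SE 0.37, adjusted p = 4.19e-09). Its log2 fold change rests on 5 adult counts in all, and was 8.91 without adult library 1 and 7.11 without adult library 2.

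Promoters of 3 of these genes are shown because they hold a pair of elements known from cell cycle genes. They are printed from RefSeq (GRCm38.p6, the assembly of mm10), 5′ to 3′ on the gene's strand and upstream of the transcript start, with every CHR core (TTTGAA) and CCAAT box on either strand in capitals. The stretches lie at chr7:135716457-135716582 (minus strand), chr11:99024192-99024431 (minus strand) and chr10:69352913-69353135 (minus strand).
Mki67: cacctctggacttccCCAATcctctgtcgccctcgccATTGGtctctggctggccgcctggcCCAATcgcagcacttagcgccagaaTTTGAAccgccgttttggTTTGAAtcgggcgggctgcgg
Top2a: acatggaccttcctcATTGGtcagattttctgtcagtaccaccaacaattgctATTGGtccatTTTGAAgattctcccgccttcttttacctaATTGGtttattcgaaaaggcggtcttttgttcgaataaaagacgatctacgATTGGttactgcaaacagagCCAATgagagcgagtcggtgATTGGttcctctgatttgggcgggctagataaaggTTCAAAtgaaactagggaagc
Cdk1: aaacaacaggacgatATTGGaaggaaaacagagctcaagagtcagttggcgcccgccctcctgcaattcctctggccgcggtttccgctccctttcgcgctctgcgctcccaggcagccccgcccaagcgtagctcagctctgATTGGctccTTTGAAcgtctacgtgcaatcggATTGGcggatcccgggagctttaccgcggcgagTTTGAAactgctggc

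Among the 56 mitosis genes with a RefSeq promoter that starts within 500 bases of the counted transcript, 40 (71.4%) held TTTGAA and 43 (76.8%) held CCAAT in the 300 bases around the start. Over all 27025 RefSeq promoters the shares were 18.1% and 37.9%, and over the 9512 tested genes with such a promoter they were 11.5% and 39.0%. Of the 461 genes higher by at least 4-fold that had a promoter, 26.9% held TTTGAA. A match describes the sequence and does not show that a factor binds there.

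Genes that copy DNA were higher too. Of 52 genes for replication licensing and the fork, 49 were higher, none was lower, and the median log2 fold change was 1.76. Mcm5, a subunit of the replicative helicase, was at 11.8 and 13.2 CPM in adult and 86.3 and 124 CPM in repopulating cells (8.38-fold, SE 0.22 on the log2 scale, adjusted p = 1.33e-07). Mcm10, which helps to start the fork, rose from 0.925 and 0.611 to 31.8 and 41.5 CPM (46.4-fold, adjusted p = 5.28e-08). Both genes were low in adult cells and higher in repopulating library 2 than in library 1. Uhrf1, which carries DNA methylation through replication, rose from 3.35 and 2.20 to 99.5 and 134 CPM (41.5-fold, adjusted p = 7.1e-09). Pcna, the sliding clamp, was already at 30.3 and 33.0 CPM in adult cells and reached 54.1 and 73.3 CPM (2.01-fold, adjusted p = 0.000493). The groups did not overlap for any of these 4 genes. With 2 libraries a group, lack of overlap is common and says little alone, here and below. It held for 22 of 33 ribosome biogenesis and translation genes (median log2 fold change 0.04). The same was so for 22 of 34 genes of CSF1R, survival and feedback (median -0.02).

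E2F-type words stand in promoters of helicase genes, printed in the same way. Capitals mark the words TTTCCCGC, TTTCGCGC, TTTGCCGC and TTTGGCGC on either strand, where overlapping matches run together. Mcm6 and Mcm7 are shown for their matches and were named after their values were seen. The stretches lie at chr8:75109341-75109382 (plus strand), chr1:128359730-128359830 (minus strand) and chr5:138172026-138172063 (minus strand).
Mcm5: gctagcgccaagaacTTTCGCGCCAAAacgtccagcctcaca
Mcm6: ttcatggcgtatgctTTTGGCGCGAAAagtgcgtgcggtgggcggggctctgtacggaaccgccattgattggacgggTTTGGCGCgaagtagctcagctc
Mcm7: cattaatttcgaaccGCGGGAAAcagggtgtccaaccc

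Of 38 replication genes with a promoter, 16 (42.1%) held such a word, against 2.32% of all promoters and 4.4% of the tested genes with a promoter. Mcm6 rose from 21.5 and 23.7 to 78.8 and 119 CPM (edgeR adjusted p = 1.49e-06). Mcm7 rose from 30.0 and 30.8 to 74.3 and 95.6 CPM (adjusted p = 9.26e-06).

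Among 29 genes of nucleotide synthesis, 15 were higher and 2 lower (1 without repopulating library 2), with a median log2 fold change of 0.57. Over all genes tested 23.9% were higher and 21.0% lower. Rrm2, the regulated subunit of ribonucleotide reductase, stood at 1.50 and 1.34 CPM in adult and 108 and 143 CPM in repopulating cells (86.8-fold, adjusted p = 4.71e-09). Tk1, the salvage enzyme for thymidine, went from 8.68 and 7.58 to 69.7 and 88.7 CPM (9.70-fold, adjusted p = 4.79e-08). Both make building blocks of DNA, and both were several times higher in each repopulating library. Pfas, of purine synthesis, fell from 132 and 139 to 101 and 102 CPM (1.34-fold lower, adjusted p = 0.00175).

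**Figure D2:**
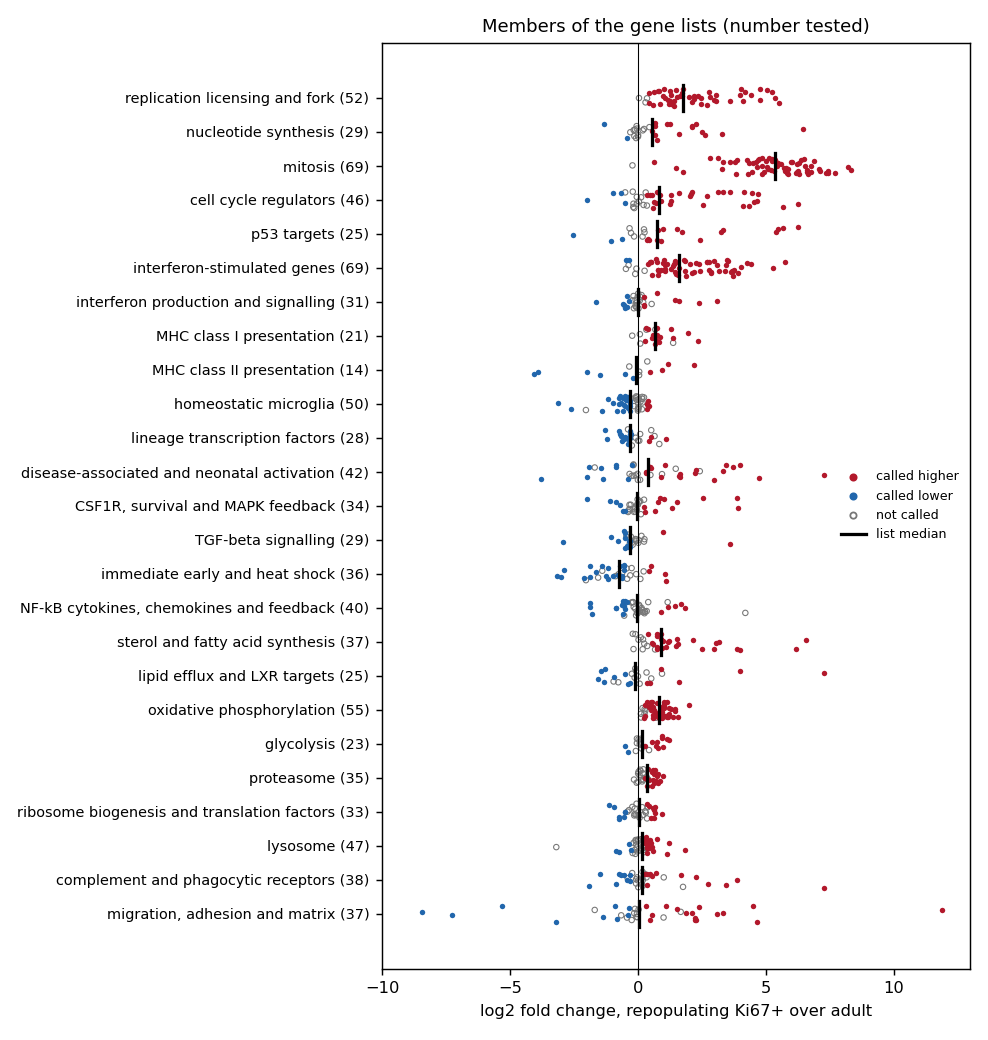
Log2 fold change of repopulating Ki67-positive over adult microglia for every tested member of 25 gene lists, with the number tested in brackets and the list median as a bar. Mitosis (median 5.38), replication (1.76), interferon-stimulated (1.60), sterol (0.92) and oxidative phosphorylation genes (0.81) lie mostly above 0, and immediate early genes (-0.72) mostly below it.

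Cell cycle regulators, brakes included, were mostly higher. Of 46 tested, 30 were higher and 4 lower (median log2 fold change 0.81). Cdkn2a, which encodes the inhibitors p16INK4a and p19ARF, was at 0.347 and 0.122 CPM in adult cells, at most 3 counts a library, and at 18.4 and 20.0 CPM in repopulating ones (80.4-fold higher by counts, 95% interval 31.1 to 297 for counting error only, adjusted p = 1.76e-07). Cdkn2c, which encodes p18INK4c, rose from 5.21 and 3.67 to 100.4 and 127 CPM (25.4-fold, adjusted p = 6.22e-09). Cdkn1a, which encodes the p53-responsive inhibitor p21 and was named after its values were seen, rose from 16.5 and 18.3 to 172 and 182 CPM (10.2-fold, adjusted p = 6.22e-09). Every repopulating library was above both adult libraries for these 3 inhibitors. The repressor E2f7 rose from 0.925 and 0.978 to 42.1 and 55.4 CPM (50.4-fold, adjusted p = 5.48e-09). In the other direction, the S phase activator E2f3 fell from 173 and 168 to 85.8 and 89.1 CPM (1.95-fold lower, adjusted p = 2.53e-06). Cdkn1c, which encodes the inhibitor p57KIP2, fell from 13.2 and 13.8 to 3.35 and 3.45 CPM (3.95-fold lower, adjusted p = 0.000216).

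Of 25 p53 target genes, 16 were higher and 3 lower (median log2 fold change 0.76), beside 23.9% and 21.0% over all genes tested. The list holds cell cycle genes as well. Its member with the highest fold change, the spindle gene Ckap2, went from 0.810 and 0.978 to 64.0 and 75.0 CPM (adjusted p = 1.81e-09). Phlda3, an inhibitor of AKT, was at 0 and 0.244 CPM in adult cells and 4.51 and 7.49 CPM in repopulating ones (49.1-fold higher by counts, 95% interval 13.2 to 412, adjusted p = 4.53e-05). Bbc3, which encodes the death protein PUMA, rose from 27.4 and 24.4 to 76.0 and 75.3 CPM (2.91-fold, adjusted p = 2.67e-07). So a target that blocks survival signals and one that promotes death were higher, without overlap between the groups. Rrm2b, the p53-dependent ribonucleotide reductase subunit, fell from 53.9 and 41.1 to 22.4 and 22.9 CPM (2.10-fold lower, adjusted p = 0.000186). Btg2, an antiproliferative gene, fell from 218 and 243 to 156 and 141 CPM (1.55-fold lower, adjusted p = 9.03e-05).

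Interferon-stimulated genes rose. Of the 69 tested, 62 were higher and 2 lower, with a median log2 fold change of 1.60, beside 23.9% higher and 21.0% lower among all genes. Oas2, which makes the signal that activates RNase L, was at 10.9 and 11.7 CPM in adult cells and 212 and 218 CPM in repopulating ones (19.0-fold, log2 fold change 4.25, SE 0.15, adjusted p = 7.66e-10). Ifi27l2a went from 2.08 and 3.06 to 93.1 and 108 CPM (39.1-fold, adjusted p = 1.67e-07). Ifit3, which acts against viral RNA, went from 9.60 and 5.87 to 53.1 and 54.7 CPM (6.93-fold, adjusted p = 1.82e-06). All 3 genes were low in both adult libraries and high in both repopulating ones, without overlap.

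Promoter stretches of 4 higher genes with several overlapping or repeated ISRE cores, and of the 2 lower genes, are shown as above, with each core (GAAANNGAAA on either strand) in capitals. Isg15, Irgm1 and Bst2 were chosen for their matches, after their values were seen. The stretches lie at chr19:34583358-34583431 (plus strand), chr4:156200860-156200911 (minus strand), chr11:48871421-48871465 (minus strand), chr8:71537572-71537617 (minus strand), chr11:58214898-58214937 (plus strand) and chr3:142530268-142530307 (plus strand).
Ifit3: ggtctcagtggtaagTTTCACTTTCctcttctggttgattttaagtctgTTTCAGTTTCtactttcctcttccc
Isg15: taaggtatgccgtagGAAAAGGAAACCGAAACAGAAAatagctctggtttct
Irgm1: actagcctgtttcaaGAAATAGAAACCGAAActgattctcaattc
Bst2: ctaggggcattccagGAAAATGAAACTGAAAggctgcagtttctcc
Irgm2: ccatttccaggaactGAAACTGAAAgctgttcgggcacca
Gbp7: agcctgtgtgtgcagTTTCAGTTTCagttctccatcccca

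Of 52 listed genes with a promoter, 27 (51.9%) held the core, against 3.49% of all promoters and 3.20% of the tested genes with a promoter. Isg15, the ubiquitin-like modifier, went from 3.47 and 1.83 to 16.9 and 21.9 CPM (edgeR adjusted p = 4.86e-05). Bst2, which encodes tetherin, went from 30.3 and 31.0 to 80.4 and 89.7 CPM (adjusted p = 8.46e-06). Irgm1, an immunity-related GTPase, went from 83.9 and 87.1 to 118 and 126 CPM (adjusted p = 0.00216). These 3 rose, while the 2 lower genes hold a core as well. Irgm2, a relative of Irgm1, was at 182 and 179 CPM in adult and 144 and 139 CPM in repopulating cells (1.28-fold lower, adjusted p = 0.00928). That call was lost without adult library 1 or 2 or repopulating library 2 (adjusted p = 0.0628, 0.051 and 0.0687). Gbp7, a guanylate-binding protein, was at 154 and 136 against 107 and 105 CPM (1.37-fold lower, adjusted p = 0.0105), and its call was lost without adult library 1 or repopulating library 2 (adjusted p = 0.107 and 0.0582).

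Of 31 genes that make and sense interferon, 8 were higher (25.8%) and 7 lower (22.6%), near the 23.9% and 21.0% over all genes tested, with a median log2 fold change of 0.00. Irf7, which amplifies type I interferon, went from 10.8 and 14.3 to 97.2 and 119 CPM (8.61-fold, adjusted p = 1.38e-07). Usp18, a brake on the type I receptor, went from 8.44 and 10.0 to 46.8 and 50.4 CPM (5.26-fold, adjusted p = 1.35e-07). Both genes were higher in both repopulating libraries, whereas a receptor and an adaptor for nucleic acids were lower. Tlr7, which senses single-stranded RNA, fell from 489 and 478 to 338 and 324 CPM (1.46-fold lower, adjusted p = 0.00115). Its adaptor Myd88 fell from 104 and 109 to 73.8 and 70.1 CPM (1.48-fold lower, adjusted p = 0.000346). The interferon genes Ifnb1, Ifna4 and Ifng had 0 counts in all 4 libraries, which allows up to 0.357 CPM in the adult and 0.389 CPM in the repopulating cells (3 counts a library, counting error only). Without adult library 1, adult library 2 or repopulating library 1 the higher genes of this list numbered 5, and without repopulating library 2 the lower ones numbered 4.

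Antigen presentation split by class. Of 21 genes of the MHC class I pathway, 15 were higher and none lower (median log2 fold change 0.69). Nlrc5, the class I transactivator, went from 29.3 and 26.3 to 144 and 138 CPM (5.08-fold, adjusted p = 7.11e-07). Tap1, the peptide transporter, went from 98.8 and 96.2 to 224 and 249 CPM (2.43-fold, adjusted p = 1.46e-05). Of 14 class II genes, 4 were higher (28.6%, near the 23.9% over all genes tested) and 6 lower (42.9%, against 21.0%). The class II chain gene H2-Aa was at 24.4 and 26.9 CPM in adult and 1.39 and 1.73 CPM in repopulating cells (16.5-fold lower, adjusted p = 7.77e-06). H2-Eb1, a chain of the other class II isotype, was at 25.1 and 22.7 against 1.97 and 1.15 CPM (14.9-fold lower, adjusted p = 1.18e-05). The invariant chain gene Cd74 was at 76.0 and 87.2 against 24.2 and 34.5 CPM (2.80-fold lower, adjusted p = 0.000857). While these chains fell, a gene for peptide loading rose: H2-DMa was at 106 and 109 against 193 and 217 CPM (1.91-fold, adjusted p = 2.57e-05). Without adult library 2 or repopulating library 1 only 2 class II genes were called higher, and without adult library 1 or repopulating library 1 or 2 only 3 were called lower.

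Markers of border macrophages, which are rich in class II, were lower beside the class II chains. Of 11 tested, 7 were lower and 1 higher, and their summed level was 1432 and 1530 CPM in adult and 921 and 868 CPM in repopulating libraries. In bulk RNA, fewer cells of a type and less RNA per cell cannot be told apart, and the part of these cells in the class II change was not tested.

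**Figure D3:**
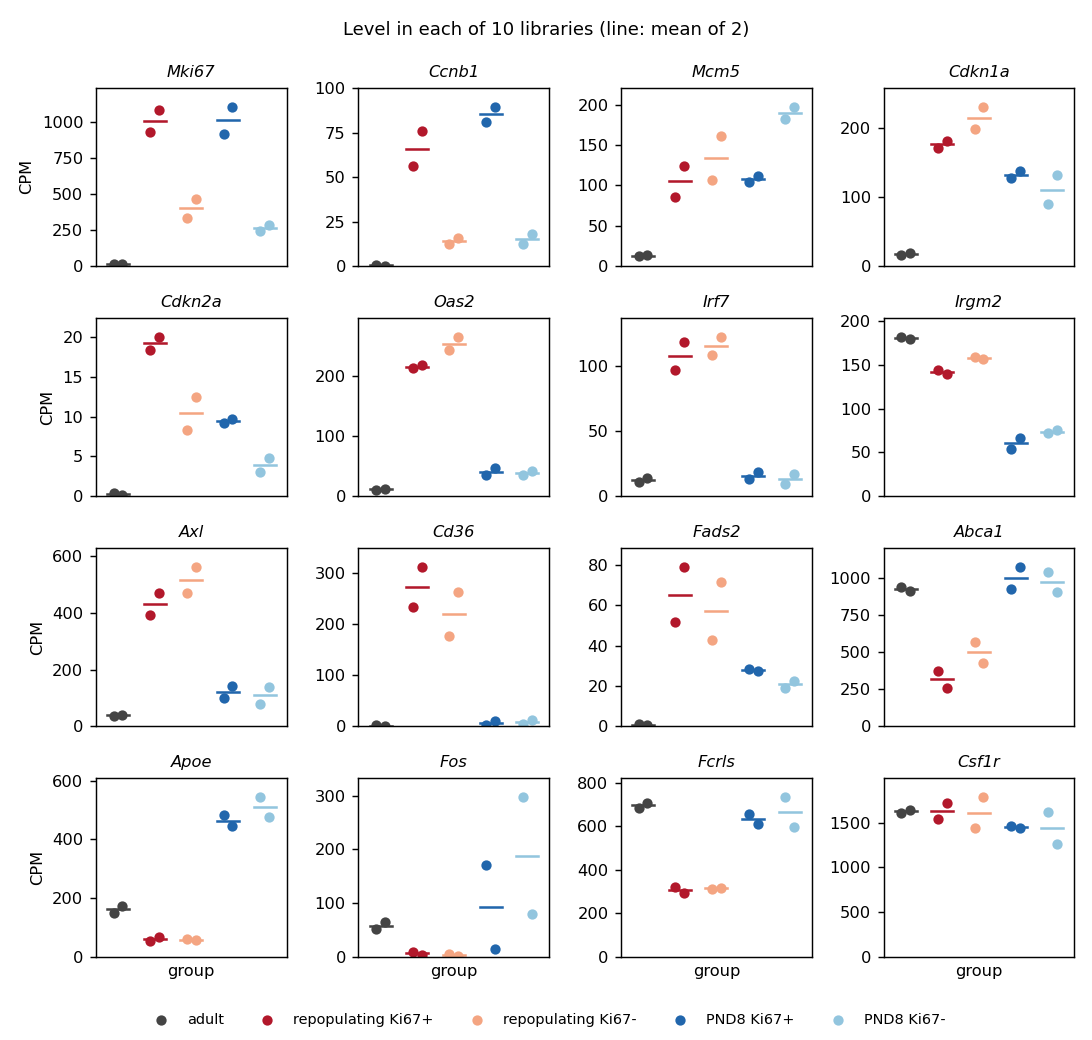
Level in CPM of 16 genes in each of the 10 RNA libraries, by group, with the mean of 2 libraries as a line. Oas2, Irf7, Axl, Cd36 and Fads2 are highest in both repopulating groups whatever the Ki67 sort, whereas Mki67 and Ccnb1 are highest in the Ki67-positive groups.

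Genes of the homeostatic microglial state fell in part. Of 50 tested, 26 were lower, 5 higher and 19 did not pass, and the median log2 fold change was -0.30. Upk1b, a uroplakin gene, fell from 154 and 146 to 20.0 and 14.4 CPM (8.65-fold lower, adjusted p = 8.03e-09). Crybb1, a crystallin that microglia make, fell from 144 and 144 to 27.5 and 19.0 CPM (6.13-fold lower, adjusted p = 5.12e-08). Fcrls, an Fc receptor-like protein, fell from 683 and 707 to 321 and 294 CPM (2.26-fold lower, adjusted p = 8.38e-07). These 3 genes were lower in both repopulating libraries than in either adult one. P2ry12, the purinergic receptor that guides microglial processes, was at 967 and 963 against 787 and 805 CPM and did not pass (log2 fold change -0.28, adjusted p = 0.0691). DESeq2 called it lower (adjusted p = 0.0478), and over all alternatives its adjusted p lay between 0.000392 and 0.196. Cx3cr1, the fractalkine receptor, was at 1582 and 1575 against 1174 and 1233 CPM (1.31-fold lower, adjusted p = 0.00943), a call lost without adult library 1 or repopulating library 1 (adjusted p = 0.0532 and 0.0517). Of the 5 higher members, 1 was called without adult library 1 and 2 without adult library 2 or repopulating library 2.

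Of 28 lineage transcription factors, 16 were lower and 3 higher (median log2 fold change -0.30), and 1 was higher without adult library 1 or repopulating library 2. Rxra, the partner of the nuclear receptors LXR and PPAR, fell from 184 and 189.9 to 84.1 and 68.9 CPM (2.44-fold lower, adjusted p = 3.2e-06). Mitf, a regulator of lysosome genes, fell from 89.4 and 89.8 to 44.2 and 33.7 CPM (2.29-fold lower, adjusted p = 1.47e-05). Maf, which restrains self-renewal of macrophages, fell from 618 and 592 to 381 and 348 CPM (1.66-fold lower, adjusted p = 3.55e-05). All 3 were lower in both repopulating libraries. Bhlhe41, a repressor of the basic helix-loop-helix family, rose from 333 and 316 to 418 and 469 CPM (1.37-fold, adjusted p = 0.00185).

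TGF-beta maintains microglial identity, and 13 of 29 genes of its pathway were lower and 2 higher (median log2 fold change -0.29), with 1 higher without adult library 1 or repopulating library 2. Over all genes tested 23.9% were higher and 21.0% lower. Smad5, a SMAD gene of the list, fell from 194 and 199 to 141 and 128 CPM (1.46-fold lower, adjusted p = 0.00102). Tgif2, a repressor of the pathway, fell from 46.5 and 48.8 to 28.5 and 26.5 CPM (1.73-fold lower, adjusted p = 0.00108). The receptor gene Acvrl1 rose from 58.9 and 56.7 to 111 and 116 CPM (1.97-fold, adjusted p = 3.57e-05). Members that transmit and members that restrain the signal thus both fell.

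Downstream of CSF1R, the blocked receptor, 11 of 34 survival and feedback genes were higher and 6 lower (median log2 fold change -0.02), which is near the 23.9% and 21.0% over all genes. Spry1, a feedback inhibitor of MAPK signalling, fell from 44.5 and 33.1 to 9.14 and 10.7 CPM (3.94-fold lower, adjusted p = 2.73e-05). Etv4, an ETS factor, rose from 0.463 and 0.855 to 6.94 and 13.7 CPM (15.2-fold, adjusted p = 1.27e-05). Among genes of cell death, Bid fell from 96.6 and 98.4 to 45.3 and 46.2 CPM (2.13-fold lower, adjusted p = 5.16e-05). Bcl2l11, which encodes BIM, fell as well, from 133 and 143 to 91.4 and 62.6 CPM (1.78-fold lower, adjusted p = 0.000338), while Bbc3 was higher as given above.

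Disease-associated and neonatal activation genes did not move as a set. Of 42, 19 were higher (45.2%) and 9 lower (21.4%), with a median log2 fold change of 0.39. The lower share is near the 21.0% over all genes tested, of which 23.9% were higher. Cd36, a scavenger receptor for lipids, was at 2.20 and 1.22 CPM in adult and 233 and 312 CPM in repopulating cells (157-fold higher, adjusted p = 3.72e-08). Axl, a receptor tyrosine kinase for dead cells, went from 37.0 and 41.9 to 392 and 469.7 CPM (10.9-fold, adjusted p = 1.01e-07). Spp1, which encodes osteopontin, went from 6.48 and 5.99 to 67.1 and 96.1 CPM (13-fold, adjusted p = 1.19e-08). Other defining members of the same state fell instead. Apoe, the lipid carrier, fell from 149 and 173 to 52.0 and 66.9 CPM (2.72-fold lower, adjusted p = 9.4e-07). Clec7a, the receptor dectin-1, fell from 33.9 and 28.0 to 8.21 and 8.06 CPM (3.80-fold lower, adjusted p = 0.00115).

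Of 38 complement and phagocytic receptor genes, 12 were higher (31.6%) and 9 lower (23.7%), near the shares over all genes tested. Cfp, the complement activator properdin, rose from 6.13 and 7.70 to 88.9 and 112 CPM (14.5-fold, adjusted p = 1.63e-08). Stab1, a scavenger receptor, fell from 1338 and 1429 to 785 and 738 CPM (1.82-fold lower, adjusted p = 6.97e-06). Gas6, the ligand of Axl, fell from 263 and 256 to 146 and 162 CPM (1.68-fold lower, adjusted p = 1.41e-05). The ligand and its receptor thus moved in opposite directions.

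Of 37 genes of migration, adhesion and matrix, 16 were higher (43.2%) and 9 lower (24.3%). The lower share is near the 21.0% over all genes tested, of which 23.9% were higher. Fbn2, which encodes the matrix protein fibrillin-2, had 0 counts in both adult libraries and 48.8 and 61.6 CPM in the repopulating ones (at least 155-fold higher, adjusted p = 6.22e-09). Vim, the vimentin gene, rose from 6.71 and 4.89 to 114 and 152 CPM (22.8-fold, adjusted p = 2.04e-09). Spn, which encodes the sialoglycoprotein CD43, rose from 0.810 and 0.733 to 17.7 and 21.7 CPM (25.0-fold, adjusted p = 2.24e-07). These genes were near 0 or low in adult cells. Cd44, a hyaluronan receptor whose antibody was among those in the sort, rose from 5.21 and 4.28 to 45.3 and 50.2 CPM (10.0-fold, adjusted p = 2.64e-07).

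Genes that make sterols and fatty acids rose. Of 37 tested, 27 were higher and none lower (median log2 fold change 0.92). Fads2, a fatty acid desaturase, went from 1.04 and 0.733 to 51.7 and 78.9 CPM (71.8-fold, log2 fold change 6.17, SE 0.37, adjusted p = 3.18e-08). Repopulating library 2 was the higher of its pair, and both libraries were far above adult.

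Of 25 genes of lipid efflux and other targets of the sterol sensor LXR, 6 were higher and 8 lower (median log2 fold change -0.10), beside 23.9% and 21.0% over all genes tested. The cholesterol exporter Abca1 fell from 935 and 913 to 376 and 257 CPM (2.92-fold lower, adjusted p = 6.26e-06). Its relative Abcg1 fell from 345 and 327 to 163 and 103 CPM (2.52-fold lower, adjusted p = 5.34e-05). The exporters fell beside Apoe and Rxra, given above. Lpl, lipoprotein lipase, rose from 48.5 and 46.3 to 124 and 167 CPM (3.06-fold, adjusted p = 5.97e-05). Plin2, the lipid droplet coat, rose from 23.8 and 25.1 to 48.8 and 41.5 CPM (1.85-fold, adjusted p = 0.000149). Ch25h, which makes 25-hydroxycholesterol, rose from 1.74 and 1.71 to 22.4 and 33.2 CPM (16.0-fold, adjusted p = 9.61e-06).

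**Figure D4:**
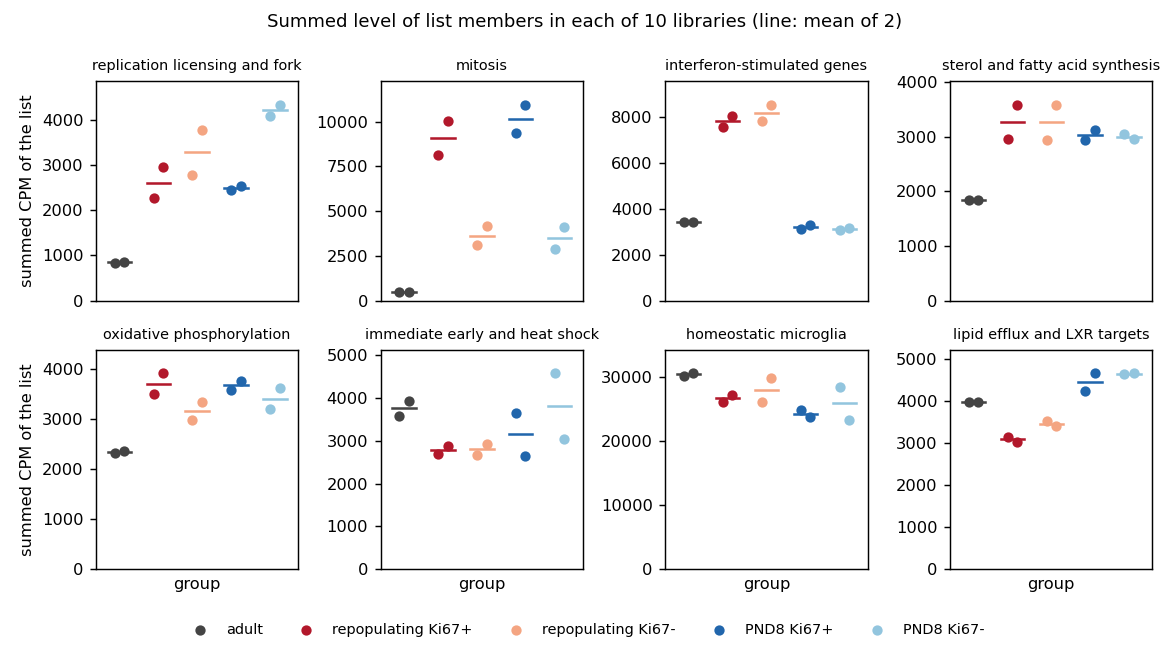
Summed CPM of all tested members of 8 gene lists in each RNA library, by group, with the mean of 2 libraries as a line. Interferon-stimulated genes sum to between 7574 and 8558 CPM in the 4 repopulating libraries and to at most 3447 CPM in the other 6, whereas the mitosis sum is higher in the Ki67-positive than in the Ki67-negative libraries of both settings.

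Immediate early and heat shock genes were lower, with 19 of 36 called lower and 4 higher (median log2 fold change -0.72). Without adult library 2, 12 were called lower, and without adult library 1 or repopulating library 2, 1 was called higher. Fos, the best known of these genes, was at 50.8 and 64.2 CPM in adult and 8.44 and 4.03 CPM in repopulating cells (8.94-fold lower, adjusted p = 0.0181). That call was lost without adult library 2 (adjusted p = 0.0637) and without repopulating library 1 or 2 (adjusted p = 0.0521 and 0.103), and the log2 fold change was -3.85 without repopulating library 1 against -3.16 with it. Egr3, a related early factor, was at 9.25 and 8.68 against 1.27 and 1.15 CPM (7.30-fold lower, adjusted p = 0.00033). Such genes respond to handling. Fos also differed within a group, at 170.1 and 14.2 CPM in the 2 libraries of PND8 Ki67-positive cells, which carry different header codes. The adult libraries share a header code that no other library has, so header code and group cannot be told apart here.

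Of 40 cytokine, chemokine and feedback genes of NF-kB, 5 were higher and 13 lower (median log2 fold change -0.05), beside 23.9% and 21.0% over all genes tested. Ccl3, a chemokine of activated microglia, fell from 32.5 and 30.5 to 9.71 and 8.20 CPM (3.50-fold lower, adjusted p = 1.24e-06). Ccl4, its neighbour in function, fell from 23.5 and 28.8 to 7.29 and 6.91 CPM (3.67-fold lower, adjusted p = 0.000357). Cxcl10, a chemokine that interferon induces, rose from 4.05 and 5.01 to 12.6 and 20.2 CPM (3.59-fold, adjusted p = 0.000332). Chemokines thus moved either way. Ccl12, which attracts monocytes, rose from 17.6 and 16.1 to 40.7 and 52.0 CPM (2.74-fold, adjusted p = 2.02e-05), and like Cxcl10 it is also on the list of interferon-stimulated genes.

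Genes of oxidative phosphorylation rose by small amounts. Of 55, 47 were higher and none lower, with a median log2 fold change of 0.81, and 3 of them passed a test against a fold of 2. Ndufa1, a subunit of complex I, went from 4.63 and 5.99 to 20.1 and 22.9 CPM (4.04-fold, adjusted p = 7.3e-05). Atp5e, of the ATP synthase, went from 16.5 and 16.9 to 42.4 and 48.8 CPM (2.73-fold, adjusted p = 2.19e-05). Many of these transcripts are short, and the authors' counting kept at most 3 reads per position, which holds down abundant short transcripts. The cap applied to every gene of the table.

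Other housekeeping pathways moved less, and their counts stand beside 23.9% higher and 21.0% lower over all genes tested. Glycolysis genes were higher in 10 of 23 and lower in 2 (1 without repopulating library 2), and the pyruvate kinase gene Pkm went from 162 and 172 to 333 and 396 CPM (2.18-fold, adjusted p = 6.11e-06). Slc2a5, the fructose transporter of microglia, fell from 411 and 429 to 297 and 293 CPM (1.42-fold lower, adjusted p = 0.000355). Proteasome genes were higher in 19 of 35 and lower in none (median log2 fold change 0.38), but none of them passed the test against a fold of 2. The proteasome assembly factor Pomp rose from 39.7 and 40.3 to 76.1 and 82.3 CPM (1.98-fold, adjusted p = 1.75e-05).

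Of 33 ribosome biogenesis and translation genes, 9 were higher (27.3%) and 7 lower (21.2%), near the shares over all genes tested (median log2 fold change 0.04), and 5 were higher without repopulating library 2. Npm1, the nucleolar chaperone, rose from 61.9 and 64.0 to 115 and 127 CPM (1.93-fold, adjusted p = 8.89e-06). Rrp1b, a ribosomal RNA processing factor, fell from 101 and 102 to 47.1 and 44.8 CPM (2.21-fold lower, adjusted p = 3.27e-06). Of 47 lysosome genes, 18 were higher and 4 lower (median log2 fold change 0.15), beside 23.9% and 21.0% over all genes tested. Without adult library 1 or repopulating library 2 the higher ones numbered 10, and without adult library 2 or repopulating library 2 the lower ones numbered 2. Gusb, beta-glucuronidase, went from 266 and 283 to 555 and 662 CPM (2.22-fold, adjusted p = 3.07e-06). Cd63, a membrane protein of late endosomes, fell from 77.4 and 72.2 to 45.0 and 38.6 CPM (1.79-fold lower, adjusted p = 6.85e-05).

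Among called genes with at least 5 CPM in both libraries of the higher group and less than 3-fold between those libraries, the 10 with the highest fitted fold increases were Fbn2, Gbp2b, Matn1, Cenpw, Depdc1b, Cdkn3, Ccnb1, Pif1, Depdc1a and Bub1. Their order rests on fitted folds over adult levels at or near 0 counts. Depdc1b was at 0.116 and 0 CPM in adult and 18.5 and 29.6 CPM in repopulating cells (395-fold higher by counts, 95% interval 70.5 to 15644, adjusted p = 2.49e-07). Gbp2b, an interferon-inducible guanylate-binding protein, was at 0 and 0 against 9.83 and 9.07 CPM (at least 26.5-fold higher, adjusted p = 1.49e-06). The 10 decreases ranked in the same way were Trim12a, Map7, Ccdc162, Camp, Abhd14b, Trim30d, Adhfe1, Hsf2bp, H2-Aa and Fam43a. Camp, a neutrophil granule gene, was at 16.3 and 7.09 against 0 and 0.288 CPM (adjusted p = 0.000399), and DESeq2 did not call it (adjusted p = 0.106; 2.42e-17 to 0.106 over the alternatives). The limit between libraries kept out the neutrophil genes Ngp and S100a9, whose 2 adult libraries differed by more: S100a9 was at 32.8 and 8.80 CPM in adult cells and had 0 counts in both repopulating libraries (at least 53.5-fold lower, adjusted p = 3.92e-05).

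Abundant genes that changed at least 2-fold came from several of these programmes and from outside them. Rnf213, an interferon-inducible ubiquitin ligase, was at 404 and 440.1 against 1009 and 1069 CPM (2.46-fold, adjusted p = 1.37e-06). Sdc3, a heparan sulfate proteoglycan, was at 161 and 174 against 829 and 968 CPM (5.37-fold, adjusted p = 6.04e-08). Flna, which encodes the actin crosslinker filamin A, was at 243 and 249 against 618 and 834 CPM (2.95-fold, adjusted p = 2.41e-06). Both genes were higher in both repopulating libraries. Lag3, an inhibitory receptor for MHC class II, fell from 378 and 389.8 to 122 and 93.1 CPM (3.56-fold lower, adjusted p = 5.43e-08). Abcc3, an exporter of organic anions, fell from 537 and 553 to 233 and 196 CPM (2.54-fold lower, adjusted p = 2.07e-07). Whrn, which encodes the scaffold protein whirlin, fell from 467 and 446 to 188 and 164 CPM (2.60-fold lower, adjusted p = 6.18e-06).

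A few genes were far below their adult level in the repopulating cells. Trim12a (mm10 chromosome 7, 104299897 to 104315495) was at 56.3 and 56.2 CPM in adult cells and 0.116 and 0 CPM in repopulating ones (877-fold lower by counts, 95% interval 157 to 34694, adjusted p = 1.64e-08). Trim30d, on the same chromosome at 104470014 to 104507849, was at 126 and 120.4 against 3.12 and 3.02 CPM (39.8-fold lower, adjusted p = 8.49e-10). Both belong to a cluster of similar genes, so their reads are uncertain. Abhd14b (chromosome 9, 106448640 to 106452918) was at 32.3 and 31.8 against 0.694 and 0.576 CPM (48.9-fold lower, adjusted p = 9.4e-07). PND8 Ki67-positive cells share the reporter genotype but not PLX5622 or adult age, and they held 0.330 and 0.116 CPM of Trim12a, 0.330 and 0.809 CPM of Trim30d and 0.551 and 0.116 CPM of Abhd14b. H3K27ac peaks covered the starts of Trim12a and Trim30d in both adult and both repopulating chromatin libraries, whose mice are all labelled wild-type. The part of the reporter genotype in these levels was not tested.

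Markers of other cells that such a sort could hold were low, and most that passed were lower. Sums are over the tested markers of a list. Of 11 tested monocyte and neutrophil markers, 8 were lower and 1 higher, and their summed level was 273 and 81.7 CPM in the adult and 23.6 and 20.2 CPM in the repopulating libraries. Ngp, a neutrophil granule gene, was at 83.4 and 20.2 CPM in adult and 0 and 0.576 CPM in repopulating cells (edgeR adjusted p = 9.96e-06). Adult library 1 held most of this signal, and 8 markers were lower without it as well. The 2 tested lymphocyte markers, of 13 listed, summed to 17.0 to 26.2 CPM over the 4 libraries. Cd3d, Cd3g, Cd8a, Ms4a1, Ncr1 and Gzma were at 0 counts in all of them. Neuronal markers summed to 21.9 and 20.0 CPM in adult and 5.09 and 3.31 CPM in repopulating libraries, with 1 of 3 tested called, lower. Endothelial and mural markers summed to 85.8 and 84.1 against 49.5 and 47.5 CPM, with 1 of 5 called, lower. Oligodendrocyte markers summed to 212 and 213 against 249 and 234 CPM, with 1 of 6 called, higher. Astrocyte markers summed to 240 and 248 CPM in adult and 410 and 421 CPM in repopulating libraries, and 1 of 7 tested was called, higher.

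Repopulating Ki67-negative cells had the same genotype, age and treatment, so that comparison turns on the Ki67 sort. Between the 2 sorted fractions 335 genes (2.74%) differed, 229 (1.87%) higher and 106 (0.867%) lower in the Ki67-positive one. The replicate number coincides with the header's run code in both fractions. With the number as a block 711 genes differed, 383 higher and 328 lower, and with the run code as a term 1213 did. Of the 69 mitosis genes 60 were higher and none was lower (median log2 fold change 1.37). Of 69 interferon-stimulated genes none was higher and 1 was lower, and of 52 replication genes none was higher and 5 were lower. With the replicate block 4 interferon-stimulated and 10 replication genes were lower, and with the header code 7 and 20. With that code 3 interferon-stimulated genes were higher. No gene of the sterol or the oxidative phosphorylation list was called by edgeR or DESeq2, with 1 and 21 genes at an unadjusted p under 0.05. With the header code 2 sterol genes were lower and 10 of oxidative phosphorylation higher. Pif1, a DNA helicase, was at 5.31 and 10.7 CPM in the Ki67-negative and 63.7 and 86.9 CPM in the Ki67-positive libraries (log2 fold change 3.29, SE 0.36, adjusted p = 0.000198). Cdc25b, the phosphatase that activates Cdk1, was at 10.3 and 11.6 against 74.8 and 98.6 CPM (2.99, adjusted p = 2.6e-06). Spn was at 2.39 and 2.74 against 17.7 and 21.7 CPM (2.94, adjusted p = 0.000121). These 3 were higher in both Ki67-positive libraries. For genes named for their fold change between the fractions, lack of overlap was a condition of the choice. Ung, which removes uracil from new DNA, was lower in the Ki67-positive fraction, at 4.51 and 5.76 against 12.8 and 21.0 CPM (-1.71, adjusted p = 0.00271), and stood at 0.810 and 0.733 CPM in adult cells. The calls between fractions numbered 105 without Ki67-negative library 1 and 122 without Ki67-positive library 2, and on the TPM values with a pseudocount of 0.1 they were 161 higher and 41 lower.

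Both fractions were also set against the same adult libraries, and their medians are given side by side because they share those controls. For mitosis genes the median log2 fold change from adult was 5.38 in the Ki67-positive and 4.00 in the Ki67-negative fraction. It was 1.76 and 2.11 for replication genes, 1.60 and 1.78 for interferon-stimulated genes and 0.92 and 1.03 for sterol genes. For immediate early genes the medians were -0.72 and -0.78, and for homeostatic genes -0.30 and -0.22.

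Ki67-positive microglia of 8-day-old (PND8) pups, also of the reporter genotype and untreated, gave a comparison with cells that divide in another setting. It called 3778 genes (30.9%), 2040 (16.7%) higher and 1738 (14.2%) lower in the repopulating cells. Scaled by library sizes alone, 1730 were higher and 2222 lower, and without PND8 library 1, PND8 library 2 or repopulating library 1 the calls numbered 2430, 2503 and 2269. Few mitosis genes were called, 1 of 69 higher and 4 lower (median log2 fold change -0.15), and no gene of oxidative phosphorylation was (median 0.03). Interferon-stimulated genes were higher in 64 of 69 and lower in 1 (median 1.89), and MHC class I genes were higher in 16 of 21 and lower in none. Ifit3 was at 6.61 and 4.74 CPM in the pups against 53.1 and 54.7 CPM in the repopulating cells (log2 fold change 3.24, SE 0.27, adjusted p = 1.07e-06). Of 33 ribosome biogenesis genes 21 were lower and none higher, and of 42 activation genes 11 were higher and 22 lower. Apoe was at 482 and 446 CPM in the pups and 52.0 and 66.9 CPM in the repopulating cells (-2.97, adjusted p = 2.45e-09). Cd36 was at 3.85 and 11.3 against 233 and 312 CPM (5.17, adjusted p = 2.23e-07; 4.56 without PND8 library 1 and 6.11 without PND8 library 2).

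Some genes were high in repopulating cells of both fractions and lower in adult and PND8 Ki67-positive cells. Fbn2 was at 39.1 and 50.3 CPM in the Ki67-negative repopulating and 0 and 0.116 CPM in the PND8 Ki67-positive libraries, beside 0 counts in adult cells. Gcm2, a transcription factor known from the parathyroid gland, was at 0 and 0.611 CPM in adult, 34.4 and 26.9 CPM in repopulating Ki67-positive and 33.0 and 30.8 CPM in repopulating Ki67-negative libraries (98.4-fold higher than adult in the Ki67-positive fraction, adjusted p = 3.17e-07). That fold rests on the counts of adult library 2, since adult library 1 had none, and the log2 fold change was 5.62 without adult library 1 and 11.04 without adult library 2, against 6.62 with both. It had 0 counts in both PND8 Ki67-positive libraries (at least 90.5-fold lower than in repopulating ones). Spock1, an extracellular proteoglycan, was at 1.16 and 1.10 CPM in adult, 43.5 and 50.7 CPM in repopulating Ki67-positive and 0.551 and 0.231 CPM in PND8 Ki67-positive libraries (41.1-fold higher than adult, adjusted p = 4.25e-09). The repopulating libraries did not overlap the adult or PND8 Ki67-positive ones for any of these 3 genes. Genes named for their fold change in a comparison had to be without overlap in it, so this was in part set by the choice.

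Chromatin of the same settings, from other mice, was read from the authors' peak lists for H3K27ac, the histone acetylation found where promoters and enhancers are in use, and for ATAC-seq, which marks open DNA. The H3K27ac mice were wild-type, aged 60 and 65 days (adult) and 90 days (repopulating, PLX5622 from day 70 for 17 days and 3 days of recovery), with Ki67 stained by antibody in fixed cells. A peak covered the start of 59.3% and 70.1% of the genes with higher RNA in the 2 adult libraries and of 85.3% and 80.3% in the 2 repopulating ones. For genes with lower RNA the shares were 66.4% and 76.9% against 79.0% and 74.7%. Both repopulating libraries were above both adult ones for the higher genes, and the ranges overlapped for the lower genes. Among the 628 genes higher by at least 4-fold the shares were 19.7% and 28.8% against 66.1% and 57.5%. Among the 191 lower by at least 4-fold they were 20.9% and 29.3% against 23% and 18.8%. More peaks were called in the repopulating libraries, 30129 and 27008 against 19572 and 24903, and the share over all genes tested was 62.6% and 72.2% against 79.6% and 74.8%. The part of the number of peaks in these shares was not tested.

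**Figure D5:**
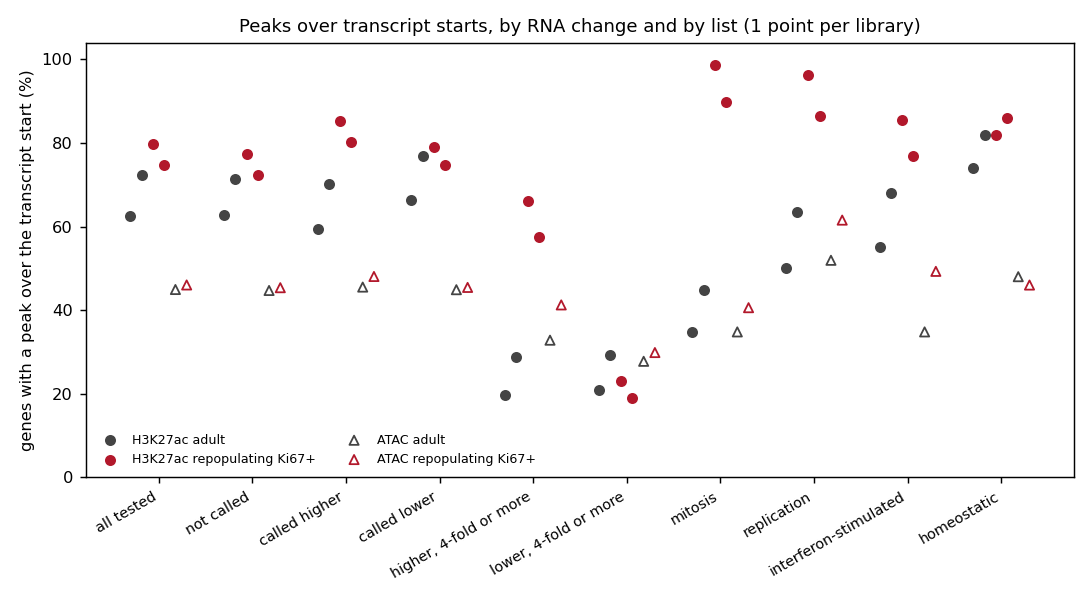
Percent of genes whose transcript start is covered by a peak, 1 point per chromatin library, for all genes tested, for genes by RNA change and for 4 lists. For mitosis genes the H3K27ac share is 34.8% and 44.9% in adult and 98.6% and 89.9% in repopulating libraries.

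A start peak absent in both adult and present in both repopulating H3K27ac libraries was found for 620 genes (5.07% of those tested), and the reverse for 34. By RNA change this was 312 of the higher genes (10.7%), 67 of the lower ones (2.61%) and 169 of those higher by at least 4-fold (26.9%). Of 69 mitosis genes 32 (46.4%) gained such a peak, among them Mki67, Top2a, Cdk1 and Ccnb1, and 11 of 52 replication genes did. These counts depend on the start itself being covered. With a peak allowed within 1000 bases, the mitosis share was 47.8% and 63.8% in adult and 100% and 91.3% in repopulating libraries. Of 69 interferon-stimulated genes 38 were covered in all 4 libraries and 6 gained a peak. Fbn2, Gcm2, Cd44, Axl and Fads2 gained a start peak, whereas the starts of Cd36, Oas2 and Apoe were covered in none of the 4 libraries. Peaks beside a start do not enter here, so an uncovered start does not mean that acetylation was absent nearby. The adult ATAC library is labelled C57 at 80 days of age. The repopulating one is labelled Ki67-rfp at 75 days, with PLX5622 from day 55 for 17 days and 3 days of recovery. Genotype, age and PLX5622 thus differ between them. ATAC peaks, from 1 library a setting, covered 34.8% of interferon-stimulated starts in adult and 49.3% in repopulating cells, against 44.9% and 46.0% of all genes tested. The repopulating ATAC list was longer, with 95411 peaks against 71642, and the ATAC headers name no genome build.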

How the data were processed

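RNA was measured in 10 poly(A) libraries, 2 in each of 5 groups, of which 4 libraries form the main comparison. The authors deposited raw counts per gene and TPM values, both made with HOMER on the mm10 genome, counting exons of RefSeq genes and at most 3 reads per position, per the file headers. The submitters' processing notes name STAR 2.7.0f, Bowtie2 2.3.4.1, HOMER 4.11 and DESeq2. H3K27ac and ATAC peak lists carry a HOMER score per peak, called by the authors in each library alone, per the file headers, with an FDR of 0.001 and, for H3K27ac, 4-fold over input. Peak scores served only to rank peaks within a list.

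Counts were tested with edgeR 4.0.16 in R 4.3.3 (filterByExpr by group, TMM scaling, quasi-likelihood fit over all 10 libraries, Benjamini-Hochberg adjusted p under 0.05). limma 3.58.1 was run on log2 TPM with pseudocounts of 1 and 0.1, and DESeq2 1.42.0 on the counts, as alternatives. CPM use TMM-scaled library sizes. The 2 libraries of a group correlated at 0.987 (adult) and 0.990 (repopulating Ki67-positive) across genes and differed by more than sampling noise. Replicate numbers did not pair adult with repopulating libraries, with a correlation of deviations of 0.0099. The test was checked on simulated data. The comparison and the gene lists were chosen with earlier results of these data known. Named genes are a panel of 21 genes, the 10 largest increases and decreases among called genes with at least 5 CPM in both libraries of the higher group and less than 3-fold between them, the 5 most abundant called genes a direction that changed at least 2-fold, up to 4 higher, 4 lower and 3 not called genes per list, and 5 a direction in each other comparison; the text describes part of these, and some are not reported here. A start peak is a peak that covers the transcript start.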

Additional observations from a re-analysis of the deposited data

Results flagged for a closer look

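The change from adult differed between repopulating and PND8 Ki67-positive microglia for 72 of the 123 genes named above. The call is from edgeR's test of the difference itself (adjusted p under 0.05), which called 30.9% of all genes tested. Some genes were named for their change in this same comparison, so the number 72 is in part set by that choice. Because both changes are taken from the same adult libraries, this test equals the direct comparison of both Ki67-positive groups. Values are log2 differences, repopulating minus PND8. Interferon-related genes had positive differences: 3.24 for Ifit3, 2.40 for Oas2, 2.77 for Irf7, 2.72 for Usp18, 2.80 for Isg15, 1.81 for Rnf213, 1.89 for Ifi27l2a, 1.24 for Irgm1, 1.23 for Irgm2, 0.67 for Bst2, 1.99 for Gbp2b, 1.07 for Cxcl10, 2.33 for Nlrc5 and 0.81 for Tap1. One interferon-induced gene had a negative difference, -0.88 for Gbp7. Lipid genes differed in either direction: 1.21 for Fads2, 4.75 for Ch25h, 5.17 for Cd36, -1.66 for Abca1, -1.16 for Abcg1, -2.97 for Apoe, -1.69 for Lpl, -1.59 for Plin2 and -0.95 for Rxra. Activation, phagocytosis and chemokine genes did as well: 1.83 for Axl, 4.02 for Cfp, -1.39 for Spp1, -1.31 for Clec7a, -1.93 for Gas6, -0.62 for Stab1, -1.04 for Lag3, -2.71 for Ccl3, -2.07 for Ccl4, -3.85 for Fos, -1.30 for Cd63, -1.48 for Cd74 and 1.76 for H2-DMa. Homeostatic, lineage and signalling genes gave these differences: 0.62 for Tmem119, 0.46 for Aif1, 4.54 for Upk1b, -2.83 for Crybb1, -1.04 for Fcrls, -0.97 for Maf, -0.53 for Mitf, 0.82 for Bhlhe41, 1.60 for Acvrl1, -0.48 for Smad5, -1.45 for Spry1, 0.37 for Slc2a5 and -0.93 for Abcc3. Genes of the cell cycle, of cell death and of p53 gave mostly small ones: -0.46 for Cdk1, -0.53 for Cdc25b, -0.42 for Ckap2, -1.31 for Ung, 0.42 for Cdkn1a, 1.02 for Cdkn2a, 0.89 for Btg2, 0.96 for Bbc3, -0.57 for Bid and -0.55 for Bcl2l11. The difference was -0.28 for Pfas, of purine synthesis, and -0.51 for Rrp1b, of ribosomal RNA processing. Genes of matrix, adhesion and other functions gave these: 2.28 for Vim, 1.32 for Spn, 1.59 for Cd44, 1.73 for Sdc3, 6.84 for Spock1, -6.11 for Map7 and 2.42 for Trim30d. 3 genes had few or no counts in 1 group, so their fitted differences (11.03 for Gcm2, 9.60 for Fbn2 and -5.06 for Ccdc162) depend on the fit. Gcm2, with 0 counts in both PND8 libraries, was at least 90.5-fold higher in the repopulating ones. Fbn2 had 0 and 1 counts in PND8, a ratio of 967 (95% counting interval 173 to 38222). Ccdc162 had 3 and 1 counts in the repopulating libraries and 134 and 27 in PND8, a ratio of 35.4 (95% counting interval 13.6 to 131) the other way. Irgm2 was lower than adult in both groups, by less in the repopulating cells (-0.35 against -1.58). Apoe, Gas6 and Crybb1 are examples in which the fitted change from adult had opposite signs in both groups, at -1.44 against 1.53, -0.75 against 1.18 and -2.62 against 0.21. Leaving out 1 of the 4 libraries ended the call of 16 of the 72 genes: Aif1, Bcl2l11, Bid, Bst2, Cdc25b, Cdk1, Cdkn1a, Cdkn2a, Ckap2, Clec7a, Cxcl10, Fos, Mitf, Pfas, Slc2a5 and Smad5. It changed the ratio behind the log2 difference by over 1.5-fold for Ccdc162 and Fbn2 and for 6 more. The log2 differences were then 4.56 to 6.11 for Cd36, -1.88 to -0.42 for Clec7a and -4.75 to -1.17 for Fos. They were -10.32 to -4.45 for Map7, 6.36 to 7.56 for Spock1 and 1.88 to 3.14 for Trim30d. The groups share 1 of their header codes. With the code as a term 67 of the 72 genes were called, all but Cdkn1a, Cdkn2a, Clec7a, Cxcl10 and Pfas. Age and PLX5622 also differ between these groups, and cannot be told apart.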

How the results depend on the processing

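Over 14 alternatives, none of the genes named against adult changed direction while called, and the reversals were in Csf1r and Tmem119, which were not called. Csf1r was at -0.027 on the log2 scale with library sizes only and -0.076 on TPM with either pseudocount. Leaving out 1 library in turn gave -0.074 to 0.058 for Csf1r and -0.13 to 0.031 for Tmem119.

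Against adult, a test for a fold of at least 2 called 916 genes (710 higher, 206 lower). Leaving out 1 library gave 3640 to 4487 calls, 2136 to 2386 of them higher and 1504 to 2101 lower. Between the repopulating fractions, the fold test called 31 genes, TPM with a pseudocount of 0.1 called 202, no filter on low counts called 736, and leaving out 1 library gave 105 to 305. The header code as a term, an alternative added after seeing the data, called 1213. Against PND8 Ki67-positive cells the fold test called 492 genes, and leaving out 1 library gave 2269 to 2632. Fewer libraries or a stricter hypothesis are part of these settings, and other causes were not tested.

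The replicate number as a block called 6021 genes against adult, 711 between the repopulating fractions and 4362 against PND8, compared with 5489, 335 and 3778. Same-numbered libraries of the repopulating fractions share a header code and deviated together (correlation 0.263), whereas the adult libraries share 1 code that is theirs alone.

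For genes with higher RNA, leaving out the lowest-scored peaks of each H3K27ac list (score under its lower quartile) gave start peaks in 50.0% and 56.8% (adult) and 75.3% and 72.4% (repopulating), and a distance of 1000 bases gave 66.8% and 75.9% (adult) and 89.0% and 85.0% (repopulating). The same distance gave 90.3% and 93.7% in the ATAC libraries, and the score limit 43.0% in adult and 47.0% in repopulating ATAC. With 7137499 to 8807640 counts a library, genes under 0.357 CPM in adult and 0.389 CPM in repopulating cells are at the counting floor.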
